A study of Mus musculus with 12 samples.

Results

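The genes described here are Neat1, the RNA scaffold of paraspeckles, the core paraspeckle protein genes Nono, Sfpq and Pspc1, the arginine methyltransferase gene Carm1, and Malat1, a noncoding RNA gene next to Neat1. They were found by symbol among the rows for genes, and all 6 were listed in each table, of 27776 genes in the transient table and 27590 in each of the other tables. The samples were mouse embryonic stem cells, the cultured pluripotent cells of the early embryo, grown on gelatin with serum, leukemia inhibitory factor and the kinase inhibitor pair 2i. There were 12 libraries in 6 groups of 2, here called libraries A and B.

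In the transient set, a codon-altered transgene (mDuxCA) of mDux, whose protein is a homeodomain transcription factor that turns on genes of the cleavage-stage embryo, was expressed for 24 h and compared with control cells, and 50 bp single-end reads were taken. The labels list the same transgene for the controls, while their titles call them control, and the grouping follows the titles. In the stable set, the same transgene with a 3xHA tag was carried by a lentivirus that doxycycline switches on, in drug-selected clones grown from single cells, and these cells held MERVL::EGFP, in which retroviral MERVL sequence drives a fluorescent protein. That line, kept under puromycin and G418, was sequenced unsorted without doxycycline or after 24 h with it, and as GFP-positive and GFP-negative cells sorted after 24 h of doxycycline, as 125 bp paired-end reads. Because no cells lacking the transgene received doxycycline, drug and transgene cannot be told apart in the unsorted comparison. The labels do not say whether the 2 libraries of a group were grown separately, and p-values therefore rest on a spread between libraries that may be technical.

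Paraspeckles are nuclear bodies that form on the long isoform of Neat1 RNA. Nono, Sfpq and Pspc1 belong to the DBHS family, RNA-binding proteins that pair with each other and coat that RNA; Sfpq and Nono are needed for the bodies to form, and Pspc1 is a further core component. CARM1 methylates histone H3 and other proteins, Nono among them, and is linked in the mouse embryo to paraspeckles and early cell fate. Malat1 is an abundant nuclear RNA from the neighbouring locus that localises to nuclear speckles, a different body, and serves here as a nuclear noncoding comparator.

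Neat1 (ENSMUSG00000092274, chromosome 19, 5824708 to 5845478, minus strand, GRCm38) and Malat1 (ENSMUSG00000092341, chromosome 19, 5795690 to 5802672, minus strand) lie 22035 bases apart. Both are annotated as long intergenic noncoding RNAs. The libraries were made from poly(A) RNA, so the 3′ ends of these transcripts bear on which molecules could be captured. The last 100 bases of the short Neat1 transcript, the long Neat1 transcript and Malat1 are shown from the GENCODE transcripts, 5′ to 3′, with the polyadenylation signal AATAAA in capitals where it occurs. The last line shows the 100 bases of Malat1 that end with its longest run of A, in capitals.
short Neat1 transcript, chr19:5842307-5842406, minus strand: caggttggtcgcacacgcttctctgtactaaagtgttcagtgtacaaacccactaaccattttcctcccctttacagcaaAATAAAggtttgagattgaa
long Neat1 transcript, chr19:5824708-5824807, minus strand: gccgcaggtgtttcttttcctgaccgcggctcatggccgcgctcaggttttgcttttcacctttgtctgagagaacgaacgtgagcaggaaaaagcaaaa
Malat1 end, chr19:5795690-5795789, minus strand: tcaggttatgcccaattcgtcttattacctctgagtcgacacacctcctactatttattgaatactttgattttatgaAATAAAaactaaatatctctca
Malat1 A run, chr19:5795988-5796087, minus strand: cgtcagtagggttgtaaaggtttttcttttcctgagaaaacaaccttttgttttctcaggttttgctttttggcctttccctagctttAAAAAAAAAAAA
The short transcript of 3004 bases carries AATAAA 14 bases before its end, while the last 100 bases of the 20771-base long transcript hold no such match and a longest A run of 5. The 12-base A run of Malat1 ends 298 bases before the annotated end. Mature Malat1 and long Neat1 are known to be cut rather than polyadenylated at their 3′ ends. All 3004 bases of the short transcript lie inside the long one, and the tables give 1 count for the gene, so the isoforms cannot be told apart and every Neat1 value below is a sum over them.

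The protein genes lie on other chromosomes. Nono (ENSMUSG00000031311) is on chromosome X at 101429318 to 101448591, Sfpq (ENSMUSG00000028820) on chromosome 4 at 127021324 to 127037013, Pspc1 (ENSMUSG00000021938) on chromosome 14 at 56720710 to 56778316, and Carm1 (ENSMUSG00000032185) on chromosome 9 at 21546894 to 21592623. Carm1 overlaps Yipf2 on the other strand, and for the strand setting of the counting the labels and headers give no value. Yipf2 did not pass in the unsorted or the sorted comparison (log2 fold change -0.12 ± 0.11 and 0.15 ± 0.11). Sfpq overlaps Gm12940 on the same strand, which rose with doxycycline (0.48 ± 0.07, from 47.3 ± 0.203 to 65.9 ± 1.07 CPM) and did not pass in sorted cells (0.09 ± 0.10). A set of 3 small annotated RNAs lies inside Neat1, and Malat1 overlaps Gm37376 on the other strand.

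Counted reads ran from 14365741 to 53826590 per library, of which 4.397 to 34.41% fell in repeats, with the highest share in the doxycycline group. The lowest count of any member in any library was 267 reads, for Carm1 in doxycycline library A. Values are CPM, the usual depth-scaled read counts, taken over gene reads after TMM scaling, a factor that corrects for a few genes taking a large share of reads, within a comparison's own 4 libraries. Fold changes are on the log2 scale with their standard error, and adjusted p-values come from the quasi-likelihood test of edgeR, with Benjamini-Hochberg adjustment across the genes tested and a threshold of 0.05. All 6 members passed the filter on low counts in every comparison.

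Control library A of the transient set stood apart: it was the highest of the 4 transient libraries for every member. Marker genes were read as summed CPM without TMM scaling. The 2-cell-like markers Zscan4c, Zscan4d, Zfp352 and Tcstv3 ran from 5.35 to 7.63 without doxycycline and 7212 to 7462 with it, 120 to 131 in GFP-negative and 9021 to 9291 in GFP-positive cells, and 61.4 to 61.7 in the transient control against 668 to 699 with mDux. The pluripotency markers Pou5f1, Sox2, Nanog and Zfp42 were present in every group, between 1578 in GFP-positive and 3671 in uninduced cells. The fibroblast markers Col1a1, Col1a2, Col3a1 and Thy1 summed to 2.25 to 3.37 in the transient, uninduced and GFP-negative groups, 19.5 with doxycycline and 16.5 to 18.1 in GFP-positive cells. Of these, 1 of 2 tested rose with doxycycline and 3 of 3 were higher in GFP-positive cells, and in each sorted group 1 of the 4 was at 0. The rise with doxycycline was mostly that of Thy1, after TMM scaling from 1.63 ± 0.101 to 19.8 ± 0.196 CPM. Col1a1 was then at 0.435 ± 0.0613 and 0.890 ± 0.0214 CPM and did not pass. The part of any of these marker sets in the results was not tested.

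The sorted comparison asked how cells that had switched on the MERVL reporter differed from cells of the same induced culture that had not. In GFP-positive cells Neat1 was 2.59-fold lower, Sfpq was 2.24-fold higher, Pspc1 1.67-fold higher, Malat1 1.26-fold higher and Carm1 1.22-fold lower. Nono did not pass. In bulk RNA, fewer cells that hold an RNA and less of it per cell cannot be told apart. Thus 5 of 6 members were called, where 66.3% of all genes tested were called, 34.3% higher and 32% lower. With gene totals in place of TMM the 5631 higher and 5252 lower genes became 4052 and 7702. For each of the 6 members the groups did not overlap, as for 82.6% of all genes tested.

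Neat1 stood at 80.5 and 62.7 CPM in GFP-negative libraries A and B, and at 27.9 and 27.4 CPM in the GFP-positive ones (log2 fold change -1.37 ± 0.10, adjusted p = 8.25e-08). The GFP-negative libraries differed from each other more than the GFP-positive ones did, and the groups did not overlap. The call held without each library in turn, with log2 fold changes of -1.55 to -1.19. Malat1 was at 131 and 121 CPM in GFP-negative and at 159 and 157 CPM in GFP-positive cells (log2 fold change 0.33 ± 0.06, adjusted p = 0.000172). These groups were apart too, but with gene totals in place of TMM the Malat1 value was 0.08 and did not pass (adjusted p = 0.221). Set against Malat1 within each library, free of any scaling, Neat1 had 0.616 and 0.52 reads per Malat1 read in GFP-negative cells and 0.175 in both GFP-positive libraries.

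Sfpq, the DBHS protein with the most reads, was at 638 and 629 CPM in GFP-negative and at 1425 and 1418 CPM in GFP-positive cells (log2 fold change 1.17 ± 0.05, adjusted p = 1.35e-10). The GFP-positive libraries were both more than 2 times the GFP-negative ones. Pspc1 was at 107 and 105 CPM in GFP-negative and at 181 and 173 CPM in GFP-positive cells (log2 fold change 0.74 ± 0.05, adjusted p = 4.80e-08). Nono, the usual partner of both, was at 463 and 485 CPM in GFP-negative and at 447 and 435 CPM in GFP-positive cells, a difference of -0.10 ± 0.05 that did not pass (adjusted p = 0.0849). Nono passed as lower with gene totals (-0.35), without a filter (-0.15), in a fit of all 8 stable-line libraries (-0.19) and without GFP-positive library A (-0.12). Carm1 was at 106 and 102 CPM in GFP-negative and at 87.5 and 83.4 CPM in GFP-positive cells, with no overlap (log2 fold change -0.28 ± 0.06, adjusted p = 0.000693).

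**Figure D1:**
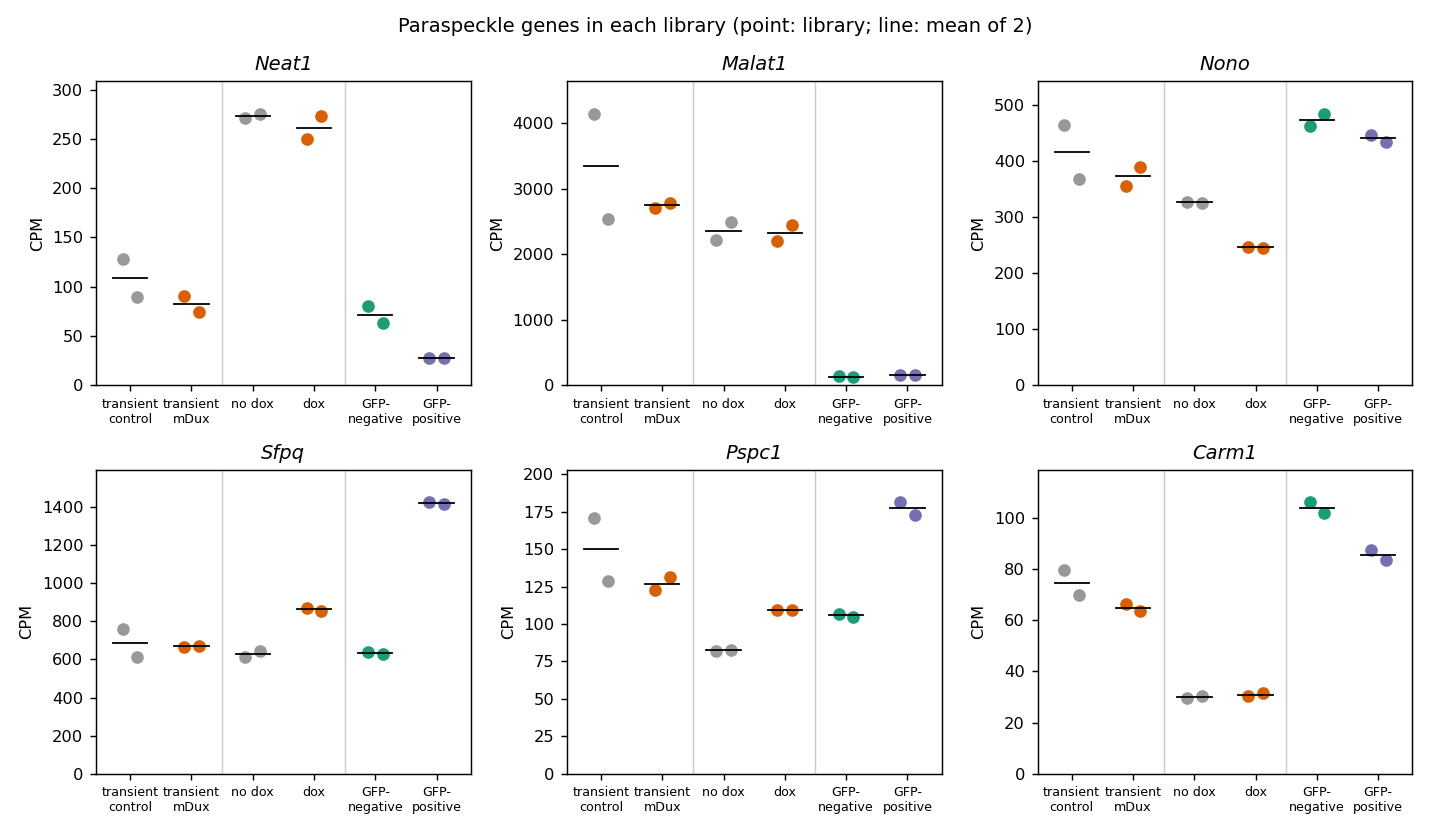
CPM (linear axis from 0) of each paraspeckle gene in every library, 2 points per group with a line at their mean, each pair of groups scaled within its own comparison and separated by grey lines. GFP-positive libraries are lowest for Neat1 (27.9 and 27.4 CPM) and highest for Sfpq (1425 and 1418 CPM), Malat1 is far lower in both sorted groups than elsewhere, and transient control library A is the highest transient library in all 6 panels.

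In the unsorted comparison, the whole culture was set side by side with and without doxycycline. Of the 3 DBHS genes, Sfpq rose 1.37-fold, Pspc1 rose 1.33-fold and Nono fell 1.33-fold, while neither noncoding RNA nor Carm1 passed. These were 3 of 6 members called, where 65.2% of all genes tested were called, 34% higher and 31.1% lower. With gene totals the 5525 higher and 5051 lower genes became 4097 and 7458.

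Sfpq was at 611 and 646 CPM without doxycycline and at 872 and 854 CPM with it (log2 fold change 0.46 ± 0.06, adjusted p = 1.43e-13). Pspc1 was at 82.0 and 83.0 CPM without and at 109 and 110 CPM with doxycycline (0.41 ± 0.06, adjusted p = 3.05e-09). Nono was at 328 and 326 CPM without and at 247 and 246 CPM with doxycycline (-0.41 ± 0.06, adjusted p = 1.61e-11). The libraries of each group lay close together and no group overlapped the other for these 3 genes, as for 81.5% of all genes tested, and their calls held under all 11 alternatives.

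The ratio of reads between DBHS genes within a library does not depend on the scaling. Sfpq had 1.86 and 1.99 reads per Nono read without doxycycline and 3.53 and 3.48 with it. In sorted cells the ratio was 1.38 and 1.30 in GFP-negative and 3.19 and 3.26 in GFP-positive libraries. In the transient set it was 1.64 and 1.66 in the control and 1.87 and 1.72 with mDux. Reads of Pspc1 per Nono read went up in the stable line, from 0.25 and 0.255 without doxycycline to 0.442 and 0.446 with it, and from 0.231 and 0.216 in GFP-negative to 0.406 and 0.398 in GFP-positive libraries, while in the transient set they were 0.369 and 0.348 in the control and 0.344 and 0.337 with mDux.

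Neat1 was at 272 and 276 CPM without doxycycline and at 250 and 273 CPM with it (log2 fold change -0.06 ± 0.06, adjusted p = 0.315), and the groups overlapped. Malat1 was at 2213 and 2493 CPM without and at 2202 and 2439 CPM with doxycycline (-0.02 ± 0.06, adjusted p = 0.790), also overlapping. Carm1 was at 29.6 and 30.4 CPM without and at 30.2 and 31.5 CPM with doxycycline (0.04 ± 0.09, adjusted p = 0.718). With gene totals in place of TMM, which moved the median of all genes to -0.22, Neat1 (-0.29, adjusted p = 3.18e-06) and Malat1 (-0.24, adjusted p = 0.000321) passed as lower and the sign of Carm1 turned (-0.18, adjusted p = 0.0641).

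**Figure D2:**
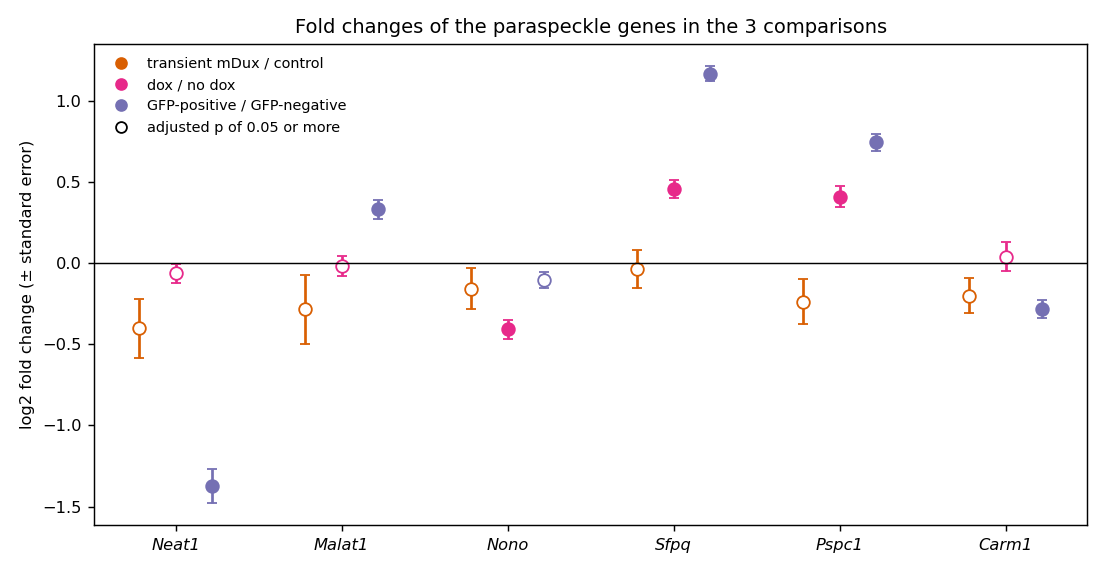
Log2 fold change with its standard error for each paraspeckle gene in the 3 comparisons, filled where the adjusted p was under 0.05. Sfpq and Pspc1 lie above 0 with doxycycline (0.46 and 0.41) and further above it in GFP-positive over GFP-negative cells (1.17 and 0.74), Neat1 is low in the sorted comparison (-1.37), and no transient value is filled.

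Whether the sorted and the doxycycline effects differ was tested as an interaction in a fit of all 8 stable-line libraries, in which the median over all genes was -0.13 and 30.5% of genes were called, 9.87% with a higher and 20.6% with a lower sorted effect. That balance depended on the setting: the 1759 higher and 3670 lower genes became 2961 and 2443 with DESeq2 size factors, 2193 and 1698 with DESeq2, 3930 and 1870 with no filter, 4219 and 1774 without GFP-positive library A and 4187 and 1933 without GFP-positive library B, where the median was 0.12 and 0.11. All 6 members were called. Neat1 had a more negative effect in the sorted comparison by -1.40 ± 0.13 (adjusted p = 2.46e-06), and Sfpq a more positive one by 0.62 ± 0.08 (adjusted p = 3.37e-07). Those 2 calls held under all 14 alternatives. The sorted effect is over induced GFP-negative cells, and the doxycycline effect over uninduced cells. Sorting and depth also differ between the 2 sets of libraries, so a difference between the effects cannot be assigned to the cells. The differences for Carm1 (-0.41 ± 0.10), Malat1 (0.26 ± 0.09), Pspc1 (0.25 ± 0.08) and Nono (0.22 ± 0.08) were smaller, and each lost its call without at least 1 library. Leaving out no-doxycycline library B or doxycycline library A left 3 of 6 called.

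The transient comparison asked what 24 h of mDux changed against the control, and none of the 6 members passed, where 2.14% of genes tested were called, 2.13% higher and 0.00668% lower. Neat1 was at 128 and 89.1 CPM in control libraries A and B and at 90.5 and 73.8 CPM with mDux (log2 fold change -0.40 ± 0.18, adjusted p = 0.799). Malat1 was at 4149 and 2543 CPM in the controls and at 2703 and 2787 CPM with mDux (-0.29 ± 0.21). The groups overlapped for both RNAs. Without a filter on low counts Neat1 passed as lower (-0.41, adjusted p = 0.0293).

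For Sfpq the controls were at 759 and 614 CPM and the mDux libraries at 668 CPM each (-0.04 ± 0.12). For Pspc1 they were at 171 and 129 CPM against 123 and 131 CPM (-0.24 ± 0.14), and for Nono at 464 and 369 CPM against 357 and 390 CPM (-0.16 ± 0.13). Carm1 was the member whose transient groups did not overlap, at 79.6 and 69.6 CPM in the controls and at 66.1 and 63.7 CPM with mDux (-0.20 ± 0.11, adjusted p = 0.903), where 35% of all genes had groups that did not overlap. Without control A Neat1 was at -0.12 and Malat1 at 0.11, while without control B Neat1 was at -0.66 and Malat1 at -0.61. The transient values thus depended on which control library was kept.

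Against the transient effect, the doxycycline effect differed for 2 of 6 members, where 36.8% of genes were called, 14.1% higher and 22.7% lower (2415 and 3892 genes, but 2909 and 2657 with DESeq2 size factors), and the median of all genes was -0.17: Nono by -0.43 ± 0.14 (adjusted p = 0.0317) and Pspc1 by 0.46 ± 0.16 (adjusted p = 0.0394). Both calls were lost on leaving out either mDux library or any one of the 4 unsorted libraries. That of Nono was also lost with DESeq2 (-0.29, adjusted p = 0.226) and with DESeq2 size factors in edgeR. Without control B more members passed. Sfpq differed by 0.31 ± 0.14 and did not pass (adjusted p = 0.0921), but passed with DESeq2 (0.45, adjusted p = 0.0262) and with its size factors in edgeR (0.45, adjusted p = 0.0221). The read format and the expression system differ together between the transient and the stable set.

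**Figure D3:**
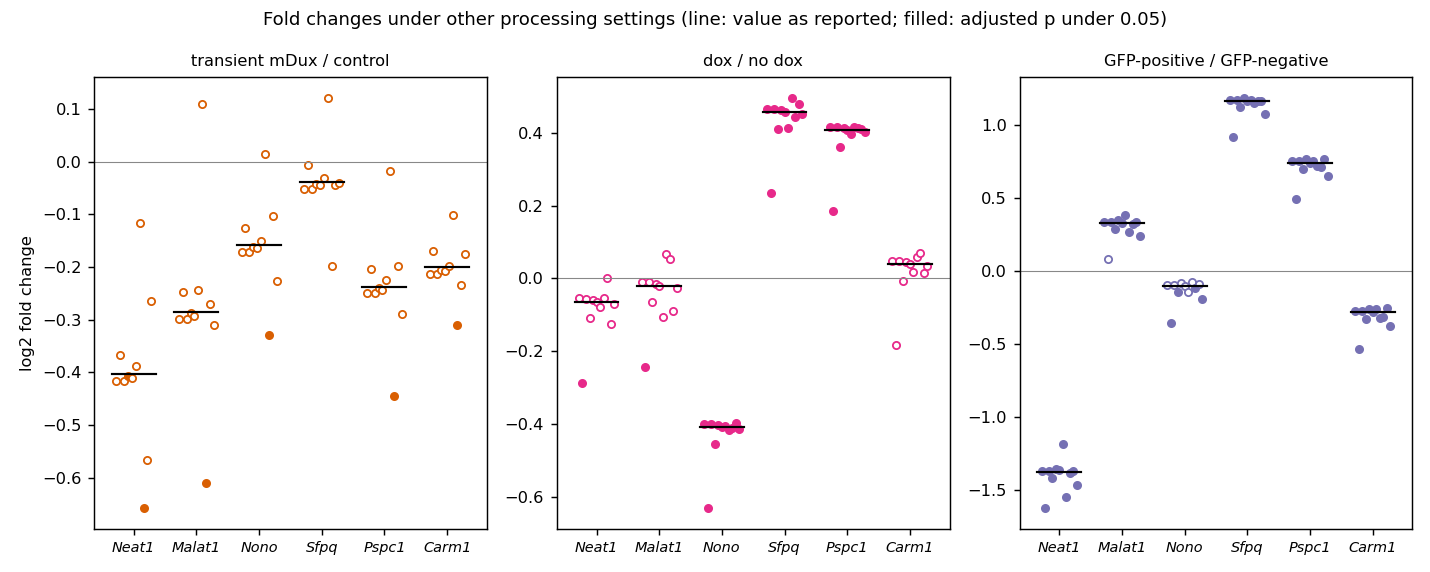
Log2 fold change of each paraspeckle gene under every alternative setting or left-out library (points, filled where the adjusted p was under 0.05) around the value as reported (line), for the 3 comparisons. The sorted values of Neat1, Sfpq, Pspc1 and Carm1 stay on 1 side of 0 and filled throughout, and the unsorted values of Nono, Sfpq and Pspc1 do too. In the transient panel filled points occur only at the lowest values, which leave out control B, and for Neat1 at -0.41 with no filter.

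Levels between genes were compared per length, as RPKM, the CPM divided by gene length in kilobases, with the deposited lengths. Without doxycycline the order was Malat1 (364 ± 30.7, SD, n = 2), Sfpq (139 ± 5.57), Nono (74.7 ± 0.415), Pspc1 (20.6 ± 0.178), Neat1 (13.4 ± 0.148) and Carm1 (8.47 ± 0.160). In GFP-positive cells it was Sfpq (314 ± 1.14), Nono (101 ± 1.84), Pspc1 (44.3 ± 1.45), Malat1 (24.4 ± 0.292), Carm1 (24.1 ± 0.807) and Neat1 (1.36 ± 0.0174), with Malat1 and Carm1 not apart beyond their spread. With doxycycline the order was as without it, with Malat1 first (359 ± 26.0). Malat1 was at 19.4 ± 1.10 in GFP-negative cells, below Carm1 (29.3 ± 0.817) and Pspc1 (26.5 ± 0.400). The lower place of Malat1 was thus common to both sorted groups and not particular to GFP-positive cells. The RPKM of Neat1 uses a deposited length of 20387 bases, close to the long transcript, so molecules of the short one would be understated on this scale.

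Across all 6 groups, with 1 TMM scaling of all 12 libraries, the level of Neat1 in CPM ran from no doxycycline (243 ± 1.88) through doxycycline (204 ± 11.7), transient control (107 ± 26.2), GFP-negative (91.7 ± 16.2) and transient mDux (79.7 ± 11.9) to GFP-positive cells (34.5 ± 0.341). On this scale the groups without and with doxycycline did not overlap for Neat1, while with the scaling of their own 4 libraries they did. Neighbours in that order overlapped between the transient control and GFP-negative groups and between GFP-negative and transient mDux. Malat1 was at 3280 ± 1083 and 2661 ± 43.6 CPM in the transient control and mDux groups, 2089 ± 169 and 1813 ± 120 CPM without and with doxycycline, and 161 ± 9.29 and 198 ± 1.77 CPM in GFP-negative and GFP-positive cells. Both sorted groups were thus below all others for Malat1. Because read format, expression system, sorting and depth differ between the sets, an order across all groups cannot be assigned to the cells.

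On the same scale of 12 libraries, Sfpq was at 674 ± 94.1 CPM in the transient control, 648 ± 2.98 CPM with mDux, 558 ± 20.6 CPM without and 674 ± 14.0 CPM with doxycycline, 811 ± 8.79 CPM in GFP-negative and 1777 ± 1.15 CPM in GFP-positive cells. Nono was at 409 ± 62.0, 362 ± 20.8, 290 ± 2.57, 192 ± 1.83, 607 ± 20.0 and 551 ± 8.39 CPM in the same order of groups. The highest Sfpq value was thus in GFP-positive libraries and the highest Nono value in GFP-negative ones. Nono with doxycycline was below both sorted groups. Read format, sorting and depth differ between the sets of libraries, so these ranks cannot be assigned to the cells. Pspc1 was at 147 ± 28.1, 123 ± 5.13, 73.2 ± 0.390, 85.5 ± 0.279, 136 ± 2.20 and 222 ± 6.58 CPM, and Carm1 at 73.3 ± 6.23, 62.9 ± 2.01, 26.7 ± 0.414, 24.1 ± 0.559, 133 ± 3.86 and 107 ± 3.26 CPM. On this scale both sorted groups were above both unsorted groups for all 4 protein genes, but without TMM Sfpq was lower in GFP-negative libraries (699 and 683 CPM) than with doxycycline (806 and 791 CPM). Carm1 was lower with doxycycline than without on this scale, and slightly higher with the scaling of the 4 unsorted libraries, where it did not pass.

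GFP-negative cells were set against the uninduced line in the fit of 8 libraries, where 77.8% of genes were called, 43.6% higher and 34.2% lower, and the median of all genes was 0.14. The 7768 higher and 6096 lower genes became 5069 and 9117 with gene totals, where the median was -0.43, and 6828 and 7135 with DESeq2 size factors. All 6 members were called. Malat1 was 12.3-fold lower (log2 fold change -3.62 ± 0.07, adjusted p = 9.29e-27) and Neat1 2.51-fold lower, while Carm1 was 5.26-fold higher (2.40 ± 0.07), Nono 2.21-fold higher, Pspc1 1.95-fold higher and Sfpq 1.53-fold higher. With gene totals Sfpq had a value of 0.02 and did not pass. Of 14 other noncoding RNAs tested 7 were higher and 6 lower, with a median log2 fold change of -0.03. Unsorted doxycycline libraries in the same fit were near the uninduced ones, at 1907 ± 137 against 1940 ± 166 CPM for Malat1 and 25.3 ± 0.731 against 24.8 ± 0.495 CPM for Carm1. GFP-negative and GFP-positive cells were at 158 ± 8.93 and 186 ± 3.28 CPM for Malat1 and at 130 ± 3.64 and 101 ± 3.94 CPM for Carm1. Sorting and depth differ together between the sorted and unsorted libraries and cannot be told apart. GFP-negative cells had also had 24 h of doxycycline, which uninduced cells had not. Induction, sorting and depth thus cannot be told apart in the contrast of these 2 groups.

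Proteins known to be needed for paraspeckle assembly, as a list chosen with earlier results of these data known, were counted next. The shares of all genes tested to set beside this and the following lists are 34% higher and 31.1% lower with doxycycline, and 34.3% higher and 32% lower in GFP-positive cells. For counts with gene totals they are instead 4097 higher and 7458 lower of 16229 genes with doxycycline. In GFP-positive cells they are then 4052 higher and 7702 lower of 16403 genes. With doxycycline 3 of 6 rose and 1 fell, and their median was 0.24 (log2), against 0.0048 over all genes. Among them the coactivator gene Rbm14 rose (0.50 ± 0.06), as did Hnrnph3 (0.40 ± 0.08), while Dazap1 fell by 0.28. Hnrnpk, whose protein favours the long Neat1 isoform, was at -0.01 ± 0.06, and the chromatin remodeller Smarca4 at 0.08 ± 0.06. With gene totals 3 of these 6 were called lower, and without doxycycline library A 0 were.

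In GFP-positive cells 5 of 6 assembly genes were higher, where 34.3% of all genes were, with a median of 0.28, among them Hnrnph3 (0.56 ± 0.07), Rbm14 (0.35 ± 0.05), Smarca4 (0.21 ± 0.06) and Dazap1 (0.12 ± 0.05). Hnrnpk was at -0.03 ± 0.05. The count was 3 higher without GFP-negative library B and in the fit of 8 libraries, and 2 higher and 2 lower with gene totals. In the transient set none of the 6 passed. Without control B 2 of the 6 were called lower.

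Of 30 further paraspeckle protein genes tested, 12 rose and 10 fell with doxycycline (median 0.02), and 13 were higher and 11 lower in GFP-positive cells (median 0.06). With gene totals 17 were lower with doxycycline, where 7458 of all 16229 genes tested were. Rbmx, an X-linked splicing regulator, went from 23.9 ± 0.415 to 101 ± 1.505 CPM with doxycycline (log2 fold change 2.08 ± 0.08) and from 25.9 ± 0.382 to 194 ± 2.59 CPM between the sorted groups (2.90 ± 0.06). Cirbp, a cold-inducible RNA-binding protein, rose by 1.56 ± 0.09 and was higher by 0.47 ± 0.08. The transcription factor Runx3 rose by 2.14 ± 0.40 and was higher by 1.83 ± 0.37, but is barely expressed. It went from 0.568 ± 0.212 to 2.46 ± 0.919 CPM with doxycycline and from 0.340 ± 0.122 to 1.22 ± 0.0197 CPM between the sorted groups.

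Genes of nuclear speckles, the bodies where Malat1 resides, were tested in 14 cases: 3 rose and 7 fell with doxycycline (median -0.07), and 2 were higher and 7 lower in GFP-positive cells (median -0.20). With gene totals 12 were lower in GFP-positive cells, where 7702 of all 16403 genes tested were and their median was -0.25. Rbm25, a splicing regulator, was higher by 2.29 ± 0.06 and 1.83 ± 0.05, the scaffold gene Srrm2 by 0.44 ± 0.06 and 0.52 ± 0.09, and the splicing factor Srsf3 was at -0.50 ± 0.06 and -0.32 ± 0.05. Of 14 other noncoding RNAs 6 rose and 6 fell with doxycycline, and of 15 tested in sorted cells 3 were higher and 11 lower in GFP-positive cells, where 34.3% and 32% of all genes were, with a median of -0.68 against 0.0010 over all genes. Ftx, a noncoding RNA of the X-inactivation centre, was lower in both (-1.92 ± 0.34 and -1.24 ± 0.29). Its levels were low, from 3.57 ± 0.529 to 0.930 ± 0.196 CPM with doxycycline and from 1.92 ± 0.279 to 0.809 ± 0.274 CPM between the sorted groups. Dleu2 was higher in both (0.85 ± 0.10 and 1.95 ± 0.16), as was the naive-state RNA Lncenc1 (1.003 ± 0.06 and 0.29 ± 0.06).

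Among relatives of Carm1, the 7 other protein arginine methyltransferase genes split, with 2 higher and 3 lower with doxycycline and 3 and 3 in the sorted comparison. Prmt6 rose by 0.90 ± 0.07 and was 1.07 ± 0.08 higher in GFP-positive cells, Prmt8 was at -0.78 ± 0.19 and -1.09 ± 0.12, and Prmt9 at -0.72 ± 0.11 and -0.97 ± 0.11. Of 10 genes for CARM1 partners and substrates 4 rose and 1 fell with doxycycline, and 5 were higher and 3 lower in GFP-positive cells. With gene totals, 1 partner rose and 5 fell with doxycycline, and 3 were higher in GFP-positive cells; of the methyltransferases 1 was then higher there, as also with DESeq2 and without GFP-negative library A, GFP-negative library B or GFP-positive library B. The acetyltransferase gene Crebbp was higher by 1.18 ± 0.06 and 1.48 ± 0.07, the coactivator gene Ncoa2 by 0.31 ± 0.07 and 0.35 ± 0.07, and the remodeller subunit gene Smarcc1, a CARM1 substrate, was at -0.63 ± 0.06 and -0.29 ± 0.05.

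Of 4 genes for transcription factors reported to act on Neat1, 3 rose and 1 fell with doxycycline, and 2 were higher and 1 lower in GFP-positive cells. Atf2 went from 134 ± 2.58 to 660 ± 10.4 CPM with doxycycline and from 114 ± 0.519 to 1385 ± 21.96 CPM between the sorted groups (log2 fold changes 2.30 ± 0.06 and 3.60 ± 0.05). Trp53, encoding p53, was lower in both (-0.69 ± 0.06 and -0.45 ± 0.05), and the heat-shock factor gene Hsf1 higher in both (0.35 ± 0.09 and 0.29 ± 0.07). Epas1, encoding a hypoxia factor, rose with doxycycline (0.75 ± 0.14) and did not pass in sorted cells (0.18 ± 0.10, adjusted p = 0.120).

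**Figure D4:**
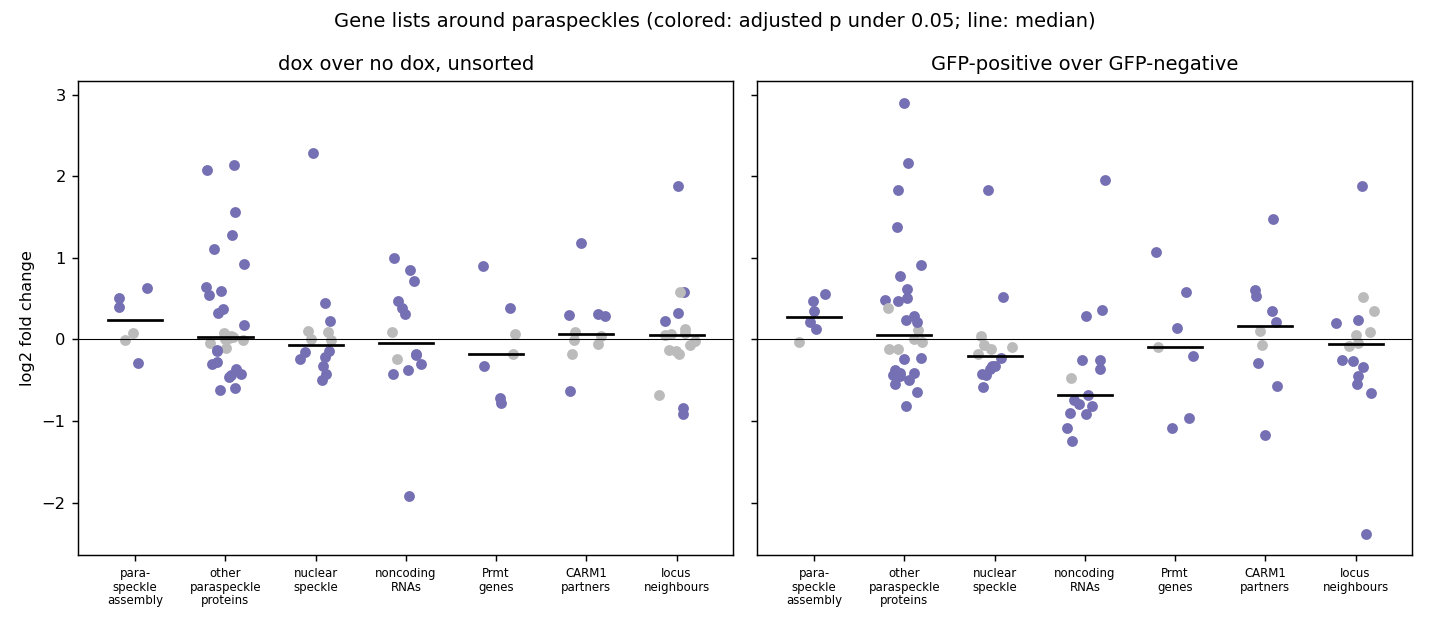
Log2 fold change of the tested genes of the lists around paraspeckles, with the genes near Neat1 and Malat1 as the last list, with doxycycline (left) and in GFP-positive over GFP-negative cells (right), colored where the adjusted p was under 0.05 and with a line at each list's median. The noncoding RNAs have the lowest median on the right (-0.68), while the medians of the paraspeckle assembly genes are 0.24 and 0.28.

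The genes most like each member were taken as those with the smallest root mean square difference of log2 CPM over the 6 group means, centred within each set, among 11141 genes of at least 5 CPM. For Neat1 these were Ly6g6e (difference 0.0759), Cmtr2 (0.160) and Cldn4 (0.181). For Sfpq they were Rap1a (0.0438), Gdap2 (0.0711) and Wdr44 (0.0846), for Nono Mrps25 (0.0274), Tipin (0.0341) and Rida (0.0345), and for Carm1 Nle1 (0.0288), BC005624 (0.0352) and Saal1 (0.0443). For Pspc1 they were AI662270 (0.0587), Aard (0.0708) and Fbxo11 (0.0760). Malat1 was nearest to Gm14026 (0.0640), Gm5529 (0.0912) and Rps15a-ps5 (0.126), the last a pseudogene whose reads may be shared with its parent gene.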

How the data were processed

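The submitters' processing notes list Novoalign 2.8, DESeq2 and mm10 without saying what each was used for. The authors deposited raw read counts per gene and repeat family with a length for each, per the file headers. Counting tool, annotation release, strand setting and handling of reads with several matches: not given in the sources used here. The deposited rlog values and test columns were not used. Column names number the libraries of a group from 0 and titles from 1, so columns were tied to groups and not to replicate numbers.

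The quasi-likelihood test of edgeR 4.0.16 (R 4.3.3, robust) was run on the 4 libraries of each main comparison. Low rows were removed by filterByExpr (at least 10 reads, 15 in total). Repeat families stayed in the fit, while library sizes, TMM factors and the Benjamini-Hochberg adjustment used genes. The standard error is the size of the fold change divided by the square root of F. Contrasts across tables used fits of 8 libraries. The biological coefficient of variation was 11.9% for transient, 3.78% for unsorted and 5.04% for sorted libraries. The scripts were tested on simulated data.

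Members and lists were chosen with earlier results of these data known. Named were all members; every gene of lists of 6 or fewer; of each longer list the 3 genes with the largest change among those called with doxycycline; overlapping genes; and, near Neat1 and Malat1, genes called in the direction of Neat1 or with the largest change. The values of 1 gene of the assembly list and 1 near Neat1 and Malat1 are not reported here. Of the listed genes, 16 of 19 noncoding RNAs and 7 of 8 methyltransferases were matched by symbol. Alternatives were DESeq2 1.42.0, its size factors in edgeR, gene totals without TMM, no filter, a filter of CPM 1 in 2 libraries, the column number as a block, a fit of all 8 stable-line libraries, and leaving out each library. Where that leaves 1 library in a group, it is assumed to vary like the other group. Coordinates and transcript sequences are from GENCODE on GRCm38, the assembly also called mm10.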

Additional observations from a re-analysis of the deposited data

Results flagged for a closer look

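By the interaction tests of the fits of 8 libraries with edgeR's quasi-likelihood test, the effects of different contrasts differed for these members. Of all genes tested, 30.5% were called for the sorted minus doxycycline difference (median -0.13). For the doxycycline minus transient difference 36.8% were called (median -0.17). Between the sorted and the doxycycline effect, the log2 difference was -1.40 for Neat1, 0.62 for Sfpq, -0.41 for Carm1, 0.26 for Malat1, 0.25 for Pspc1 and 0.22 for Nono. Of these calls, only those of Neat1 and Sfpq held under all 14 alternatives. Between the doxycycline and the transient effect, the log2 difference was 0.46 for Pspc1 and -0.43 for Nono. Direction and call stayed the same under 7 of 14 alternatives for Pspc1 and 6 of 14 for Nono.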

How the results depend on the processing

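Leaving out each library in turn, the number of members called ranged from 0 to 5 for transient, 3 to 3 for unsorted and 5 to 6 for sorted cells, stayed at 6 for GFP-negative over no doxycycline, and ranged from 0 to 5 for the doxycycline minus transient and from 3 to 5 for the sorted minus doxycycline difference. It was 1 in the transient comparison with no filter and 5 in the unsorted comparison with gene totals. Used as a replicate block, the column number left 0, 3, 5 and 6 members called in the transient, unsorted, sorted and GFP-negative comparisons, 1 for the doxycycline minus transient difference, where Pspc1 lost its call (0.46, adjusted p = 0.0564), and 6 for the other. The correlation of deviations between same-numbered libraries was -0.14 for transient, -0.02 for unsorted and -0.03 for sorted cells. Columns were not tied to replicate numbers, so these values cannot show whether libraries were paired.

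Of 444 values of single members under alternatives, 380 kept direction and side of the threshold, 35 lost the call, 17 gained it and 12 changed sign, and the cause was not tested. Leaving out each library, transient values ranged from -0.61 to 0.11 for Malat1, -0.33 to 0.0153 for Nono and -0.20 to 0.12 for Sfpq. Unsorted values ranged from -0.12 to 0.00078 for Neat1 and -0.11 to 0.0675 for Malat1 (0.05 without doxycycline library A). The doxycycline minus transient difference ranged from -0.10 to 0.39 for Neat1, -0.29 to 0.38 for Malat1 and -0.0136 to 0.14 for Carm1. Carm1 was at -0.0091 for that difference with gene totals, and in the unsorted comparison at -0.18 with gene totals and -0.0056 with no filter. Gene totals moved the median of all genes to -0.22 in unsorted and -0.25 in sorted cells.

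The 319 higher and 1 lower transient genes became 522 and 92 without control A and 1185 and 1404 without control B, and the lower count was 91 with no filter, 40 under the block and 2 with DESeq2.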

Other observations

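Of 24 genes whose start lies within 200 kb of Neat1 or Malat1, 16 were tested in the sorted comparison, where 3 were higher and 7 lower in GFP-positive cells (median log2 fold change -0.06), against 34.3% and 32% of all genes tested. With doxycycline 17 were tested, of which 4 rose and 2 fell, against 34% and 31.1%. Among those higher in GFP-positive cells were Cdc42ep2 (1.88 ± 0.45), which is barely expressed, and Dpf2 (0.24 ± 0.06). Lower in GFP-positive cells, as Neat1 was, were Pola2, a subunit gene of DNA polymerase alpha (-0.65 ± 0.06), the acetyltransferase gene Kat5 (-0.55 ± 0.07), Sssca1 (-0.44 ± 0.08), the calpain gene Capn1 (-0.34 ± 0.08), the kinase gene Map3k11 (-0.27 ± 0.09), Pcnx3 (-0.26 ± 0.06) and Slc25a45, which is barely expressed (0.646 ± 0.0169 against 0.121 ± 0.113 CPM). Of these, Pola2 fell by 0.91 and Capn1 by 0.84 with doxycycline.

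Sfpq had 2.25 and 2.34 reads per Neat1 read without doxycycline, 3.49 and 3.12 with it, 7.92 and 10.03 in GFP-negative libraries and 51.1 and 51.8 in GFP-positive ones.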
